A study of Mus musculus with 16 samples.

Results

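The genes described here are 33 markers of hippocampal subfields and of neighbouring neocortex, read in RNA sequencing libraries of the mouse CA1 subfield. They were chosen by symbol, as genes in use as markers of 1 field, and all 33 were found among the 46403 gene symbols of the deposited tables. Several (Dkk3, Necab2, Fn1, Rorb, Tle4 and Pcp4) are also expressed outside the field they are listed for, so their levels are not specific to it. Whether the other markers are specific to their field was not tested. By subfield, 8 mark CA1, 6 mark CA2, 5 mark CA3, 9 mark the dentate gyrus, 2 mark the subiculum and 3 mark neocortical layers. The series compared 8 Fmr1-KO mice with 8 wild type (WT) mice given as C57BL/6, all of which served as yoked controls in active place avoidance, a test in which trained animals learn to keep out of a shock zone. Both groups were sampled from the same labelled tissue, the CA1 subfield. The sources used here do not give age, sex, the knockout allele, the time of sampling or the strain background of the Fmr1-KO mice. Each library was labelled with an animal of its own, so p-values measure the spread between these animals. The animals also have a letter, B or D, and both letters occur in each genotype.

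The hippocampus is built of fields whose principal neurons sit in thin adjoining layers. Granule cells of the dentate gyrus project to CA3 pyramidal cells, these project to CA1, the small CA2 field lies between them, and CA1 projects to the subiculum. Each field is known for transcription factors, adhesion molecules and calcium-binding proteins that its neighbours express little or not at all. A CA1 sample taken from tissue therefore carries RNA of CA1 cells, of glia and vessels within it, and of whatever neighbouring tissue came with it. The markers give the level in each library of genes listed for CA1 and for the other fields, and whether that level differs by genotype. The lists differ in size and in how strongly their genes are expressed in the field they mark. A sum over a list, or its percentage of the CA1 sum, therefore does not measure the share of RNA that came from a field. In bulk tissue, fewer cells of a type and less RNA per cell cannot be told apart.

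Levels are given as normalised CPM, which are estimated counts scaled to a common library size with TMM (a trimmed mean of M-values). Where different genes are compared, the count is also divided by the effective length of the transcripts (CPM per kilobase). Fmr1, the gene targeted in the knockout, had 22.2 ± 7.08 CPM in Fmr1-KO libraries and 58.1 ± 19.4 CPM in WT libraries (SD, n = 8 each). All 8 Fmr1-KO libraries lay below every WT library, and the log2 fold change was -1.41 with an SE of 0.22 and an adjusted p of 0.0112 by edgeR's quasi-likelihood test.

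Libraries differed in depth and WT replicates 3 and 6 stood apart. Depth ran from 1480966 to 2979481 estimated counts in Fmr1-KO and from 2126632 to 3275003 in 6 of the WT libraries, with 878484 in WT replicate 3 and 515103 in WT replicate 6. A single count was worth 0.289 to 0.675 CPM in the other 14 libraries, 1.201 CPM in WT replicate 3 and 3.01 CPM in WT replicate 6. Protein-coding genes took 80.7% and 58.4% of the counts in these shallow libraries, against 87.6% to 91.8% in the others. Where a result named here turns on them, its value without both is given beside it. Where a gene had a count of 0, the level could still reach that of 3 counts, which is 0.868 to 9.03 CPM depending on the library, by counting error alone.

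CA1 markers dominated in every library. On the per-length scale, summed over the 8 CA1 genes, levels ran from 986 to 1101 CPM per kilobase in Fmr1-KO libraries (median 1038) and from 922 to 1135 in WT libraries (median 1064). The 6 CA2 genes together reached 66.9 to 99.1 CPM per kilobase in Fmr1-KO and 59.8 to 84.2 in WT. The 9 dentate genes reached 56.0 to 82.8 in Fmr1-KO and 56.9 to 105.8 in WT. The sums for the remaining fields were lower again. CA3 genes had medians of 22.7 CPM per kilobase in Fmr1-KO and 26.3 in WT, subiculum genes 6.09 and 8.71, and neocortical genes 7.85 and 10.8. All 25 markers from outside CA1 together came to 16.1% to 22.9% of the CA1 sum in Fmr1-KO libraries and to 15.8% to 28.5% in WT libraries, or 15.8% to 19.4% in the 6 deeper WT libraries.

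**Figure D1:**
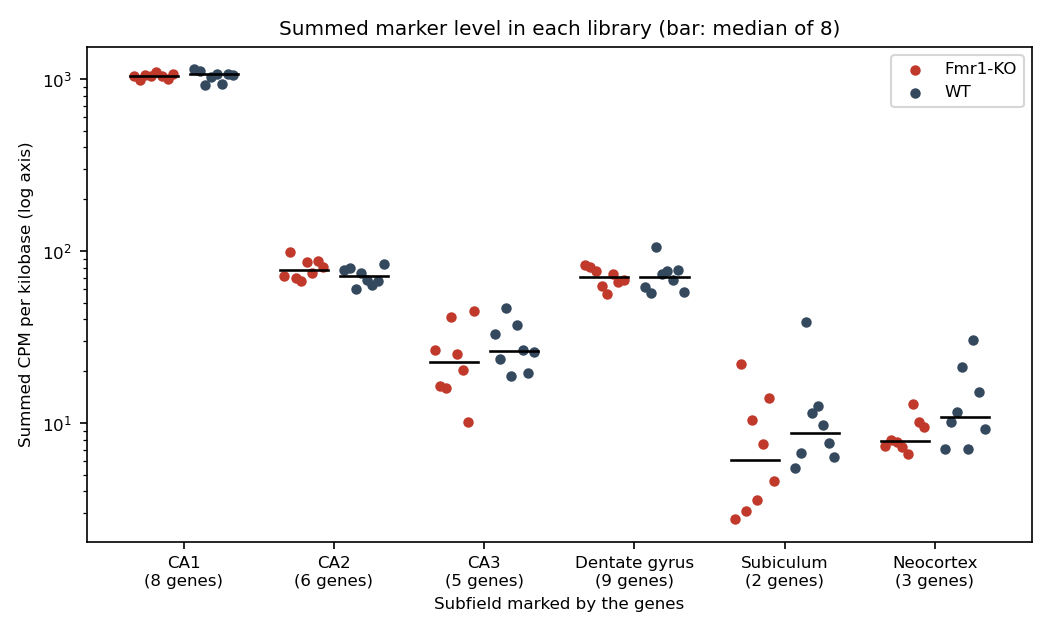
Summed level of the markers of each subfield (vertical log axis, CPM per kilobase), with a point for each library, Fmr1-KO left of WT, and a bar at the median of 8. CA1 markers sum to 922 or more in every library, and no other field exceeds 105.8; the highest WT points for dentate gyrus and subiculum belong to replicate 3 and the highest for neocortex to replicate 6.

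Most of the level credited to other fields came from 3 genes, which were picked out after their values were seen. Rgs14 stood for CA2 with 67.1 ± 11 CPM per kilobase over all 16 libraries (SD), C1ql3 with 34.6 ± 8.35 and Lct with 27.1 ± 6.05 for the dentate gyrus. Without them, the remaining 22 markers from outside CA1 held 3.45% to 8.07% of the CA1 sum in Fmr1-KO libraries and 5.17% to 14.4% in WT libraries. The upper WT values were those of replicate 3 (14.4%) and replicate 6 (10.5%), and the 6 deeper WT libraries held 5.17% to 6.64%. The same 22 genes summed to 131 ± 17.2 CPM in Fmr1-KO, against 199 ± 83.1 CPM in WT libraries (SD, n = 8 each), or 158 ± 11.6 CPM in the 6 deeper WT libraries. In those 6 the range was 145.8 to 178.1 CPM and overlapped the Fmr1-KO range of 99.1 to 152.6 CPM. The overlap came from Fmr1-KO replicate 2 alone, at 152.6 CPM. This list was trimmed after its values were seen and has no test.

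The order of the markers by level, per kilobase and over all 16 libraries, put 5 CA1 genes at the top. Wfs1, which encodes the endoplasmic reticulum protein wolframin, led with 272 ± 36.5 CPM per kilobase (SD). Dkk3, which encodes a secreted glycoprotein of the Dickkopf family, followed with 236 ± 24.2, within the spread of Wfs1 across libraries. Within each library Wfs1 was above Dkk3, except in Fmr1-KO replicate 6 (235 for Wfs1 and 258 for Dkk3). Mpped1, named for its metallophosphoesterase domain, had 167 ± 14.8, and Fibcd1, which encodes a transmembrane receptor that binds acetylated sugars, had 159 ± 15.8, which lay within the spread of Mpped1. Pou3f1, a POU-domain transcription factor, had 98.8 ± 9.52. Rgs14 came next at 67.1 ± 11, above the CA1 genes Man1a (48.0 ± 9.97), a Golgi mannosidase of N-glycan trimming, and Spink8 (45.9 ± 18.3), a member of the Kazal-type serine peptidase inhibitors. Man1a and Spink8 did not differ beyond their spread. Ndst4, a heparan sulfate N-deacetylase and N-sulfotransferase, was the lowest CA1 marker at 14.2 ± 6.67, below C1ql3, Lct and the CA3 marker Bok (17.8 ± 11.1). Among all genes of a library, ranked by the deposited TPM, Wfs1 held a median rank of 203, Fibcd1 402 and Pou3f1 822, where 13405 to 18451 genes were above 0. Below Fn1 (10.3 ± 8.92), every marker averaged under 10 CPM per kilobase, and Iyd was the lowest at 0.0465.

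**Figure D2:**
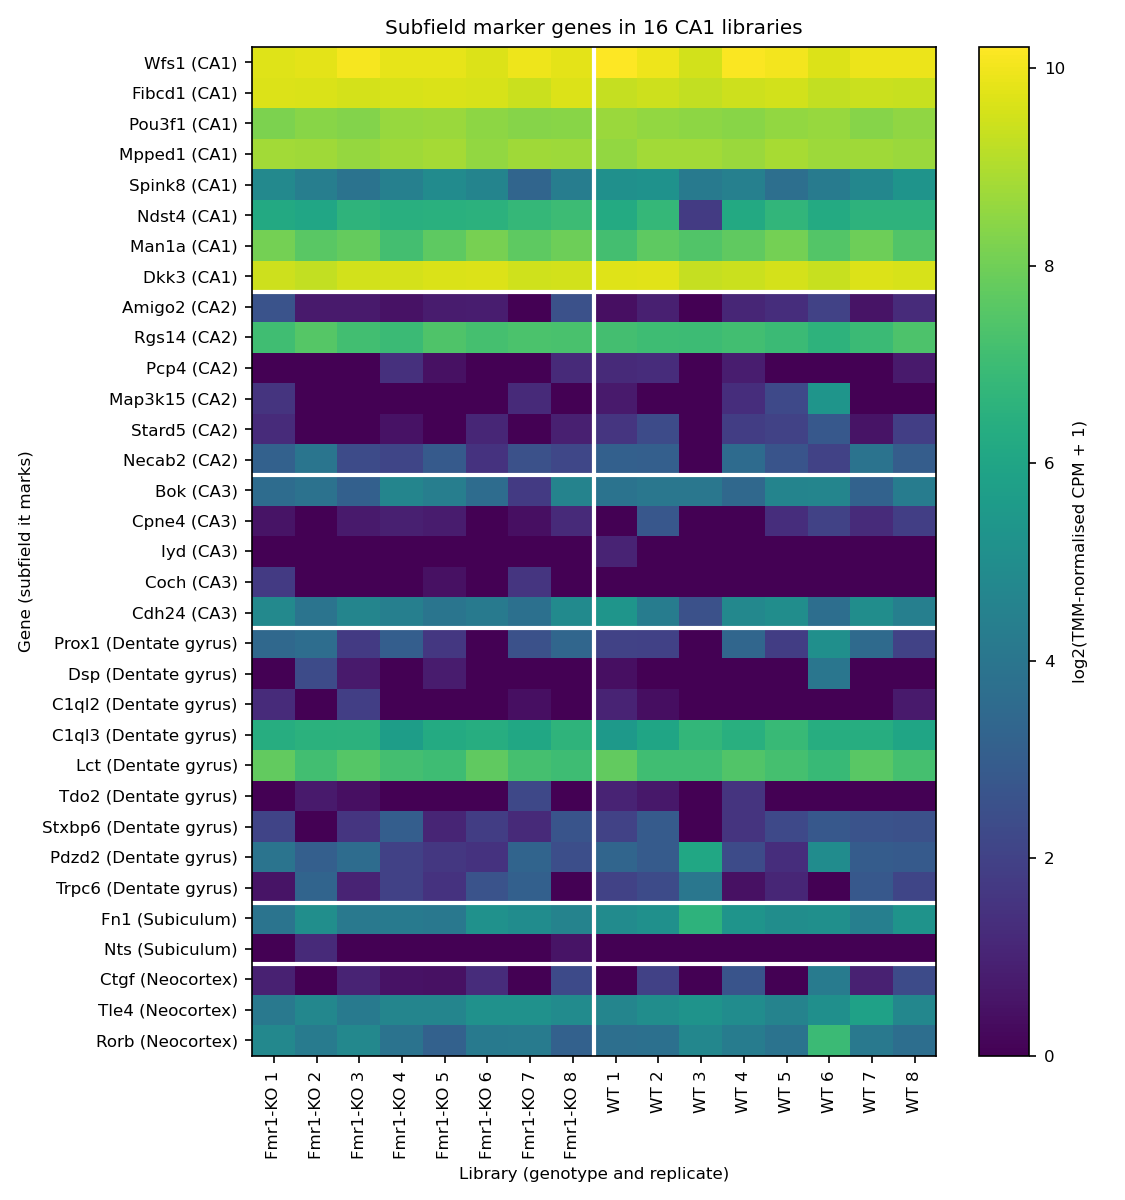
Level of the 33 markers (rows, grouped by subfield) in the 16 libraries (columns, Fmr1-KO left and WT right), as log2 of normalised CPM + 1 (colour scale; not divided by length). The CA1 rows are bright in nearly all columns, except Spink8, whose mean CPM is below that of Fn1 and Tle4 in both genotypes. Ndst4 is dark in WT replicate 3. Of the rows below, Rgs14, C1ql3 and Lct are bright throughout, and WT replicate 6 stands out for Map3k15, Prox1, Dsp and Rorb.

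For the comparison of genotypes, 19 of the 33 markers passed the filter on low counts and were tested, and the other 14 have counts only. None of the 19 was called at an adjusted p of 0.05 with edgeR, against 0.0174% of the 11515 genes tested (Fmr1 and Ccnd2, both lower). At an unadjusted p under 0.05 edgeR marked 2 of 19, Fibcd1 (higher) and Fn1 (lower), or 10.5%, against 7.89% of all genes tested, a share near the background. By direction these were 1 higher, against 3.61% of all genes, and 1 lower, against 4.28%. DESeq2 also called none and marked the same 2 at an unadjusted p under 0.05, with 11 of the 19 left without an adjusted p. No marker had groups that did not overlap, which 0.0434% of all genes tested did. Of the 19, 5 had a positive and 14 a negative log2 fold change (Fmr1-KO over WT), with a median of -0.10, beside -0.01 over all genes tested. With WT replicates 3 and 6 left out the split was 9 positive and 10 negative, the median was -0.04 beside 0.00, and none was called, against 0.0169% of genes. The count at an unadjusted p under 0.05 in edgeR was then 4 of 19, a share above the 7.32% of all genes tested. Fibcd1 was higher in Fmr1-KO, and Wfs1, Cdh24 and Fn1 were lower.

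**Figure D3:**
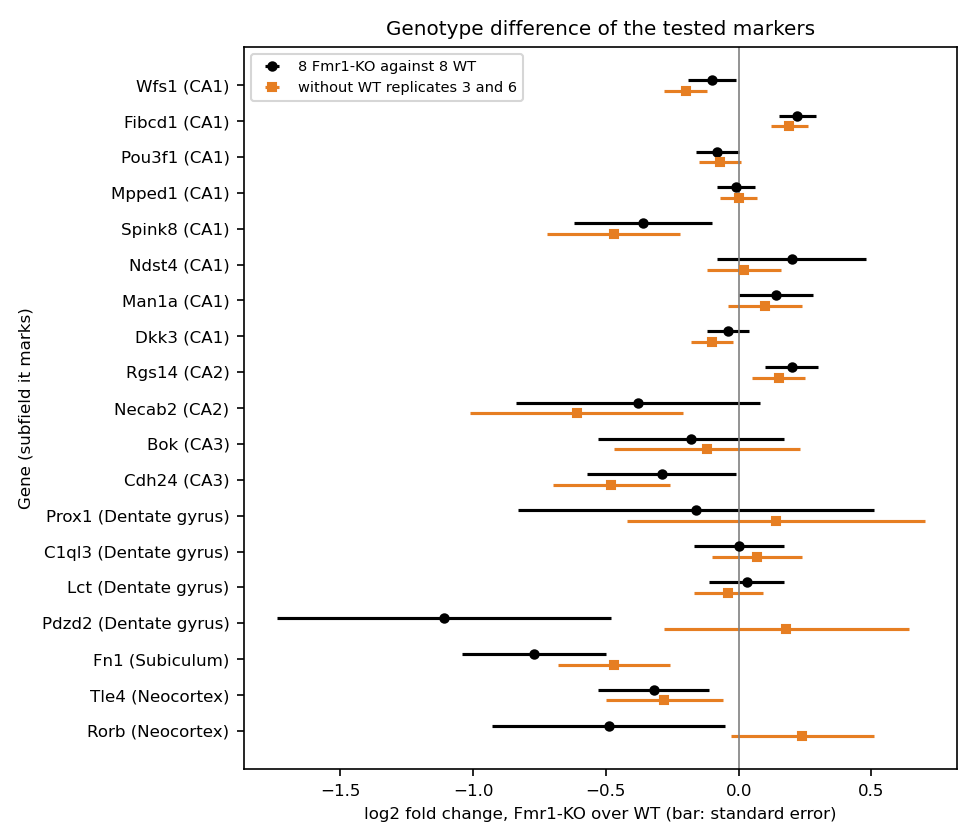
log2 fold change (horizontal axis, Fmr1-KO over WT, bar: standard error) of the 19 tested markers, ordered by subfield from CA1 at the top, in black for 8 against 8 libraries and in orange without WT replicates 3 and 6. Most CA1 genes lie within 0.25 of 0 with short bars; Pdzd2, Rorb and Prox1 are negative with all libraries and positive without both WT libraries.

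In CA1, the field that was sampled, all 8 markers were tested, with 3 positive and 5 negative log2 fold changes and a median of -0.02. Fibcd1 (chromosome 2, 31813290 to 31846005, minus strand, GRCm38, as for all positions here) had a lowest, median and highest level of 676, 789 and 815 CPM in Fmr1-KO libraries, against 614, 663 and 729 CPM in WT libraries. Every Fmr1-KO library lay above the WT median and 7 of the 8 lay above every WT library, while replicate 7 fell among the WT values. The means were 775 ± 46.5 CPM in Fmr1-KO, against 664 ± 41.9 CPM in WT libraries (SD, n = 8 each), a 1.17-fold difference. The log2 fold change was 0.22 with an SE of 0.07 and a 95% interval of 0.09 to 0.35, and the adjusted p by edgeR's quasi-likelihood test was 0.515. Across the alternatives the adjusted p ran from 0.0628 (the DESeq2 Wald test) to 0.769, so the difference was not called in any. Without WT replicates 3 and 6 the log2 fold change was 0.19, with an edgeR adjusted p of 0.62.

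Wfs1 (chromosome 5, 36966104 to 36989205, minus strand) had 811, 893 and 1092 CPM in Fmr1-KO and 730.0, 975 and 1187 CPM in WT, as lowest, median and highest. WT replicates 3 and 6 were the lowest of all 16 libraries at 730.0 and 806 CPM, while the other 6 WT libraries, at 956 CPM or more, lay above 6 of the 8 Fmr1-KO libraries. The log2 fold change was -0.10 with an SE of 0.09 and an edgeR adjusted p of 0.813. Leaving out WT replicates 3 and 6 gave -0.20 with an SE of 0.08 and an edgeR adjusted p of 0.644, a larger difference that was likewise not called. Pou3f1 (chromosome 4, 124656807 to 124660655, plus strand) averaged 347 ± 37.6 CPM in Fmr1-KO, against 368 ± 29.7 CPM in WT libraries (SD, n = 8 each), with a log2 fold change of -0.08 and an SE of 0.08. The 95% interval of the Wfs1 difference over all libraries ran from -0.29 to 0.08.

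None of the other 5 CA1 markers was called or had an unadjusted p under 0.05. Mpped1 averaged 422 ± 28.2 CPM in Fmr1-KO, against 425 ± 30.1 CPM in WT, and Dkk3 729 ± 60.9 CPM in Fmr1-KO, against 749 ± 90.5 CPM in WT libraries (SD, n = 8 each). Their log2 fold changes of -0.01 and -0.04 take the other sign or 0.00 when libraries are scaled by their totals. Man1a had a log2 fold change of 0.14 with an SE of 0.14, and Spink8 one of -0.36 with an SE of 0.26. Ndst4 averaged 93.2 ± 19.7 CPM in Fmr1-KO, against 79.1 ± 34.4 CPM in WT. Its spread in WT came from replicate 3, which had 2.40 CPM, while the other 7 WT libraries and all Fmr1-KO libraries held 65.5 CPM or more. Its log2 fold change of 0.20 was 0.02 without WT replicates 3 and 6.

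The CA1 markers had the lowest median spread of the 6 lists. The median SD of log2 CPM across the 8 tested CA1 genes was 0.145 in Fmr1-KO and 0.205 in WT, beside 0.168 in Fmr1-KO and 0.217 in WT for all 1656 tested genes with a mean log2 CPM of at least 7. Without WT replicates 3 and 6 the CA1 value was 0.132 in WT, beside 0.163 for those 1656 genes. Fibcd1 varied least of the 19 tested markers, with SDs of 0.0901 in Fmr1-KO and 0.0906 in WT on the log2 scale. Nearly all of this signal came from protein-coding transcripts, and for Wfs1 a single transcript (Wfs1-001) took 87.2% of the estimated counts of the gene. Fibcd1 and Pou3f1 have 1 transcript each in the deposited tables.

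CA2 is known for its resistance to long-term potentiation, and Rgs14, a regulator of G-protein signalling, is a known brake on it. Rgs14 (chromosome 13, 55369732 to 55384687, plus strand) had 125, 150.3 and 184 CPM in Fmr1-KO and 96.3, 129 and 163 CPM in WT, as lowest, median and highest. Of the Fmr1-KO libraries 7 lay above the WT median, but the ranges overlapped widely. The log2 fold change was 0.20 with an SE of 0.10 and an edgeR adjusted p of 0.651. The other defining CA2 genes did not share its level. Amigo2 (chromosome 15, 97244125 to 97247287, minus strand), a leucine-rich adhesion molecule, had 30 counts over the 8 Fmr1-KO libraries and 17 over the 8 WT libraries. Of the 30, 11 each fell in Fmr1-KO replicates 1 and 8. Pcp4 (chromosome 16, 96467606 to 96525793, plus strand), a small protein that modulates calmodulin, had 8 counts in Fmr1-KO and 13 in WT, and 9 of the 16 libraries had none.

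The 5 CA2 genes other than Rgs14 summed to 8.81 ± 4.87 CPM in Fmr1-KO, against 16.8 ± 14.8 CPM in WT libraries (SD, n = 8 each), a sum made after the level of Rgs14 was seen. WT replicate 6 had the highest value, 51.2 CPM, and WT replicate 3 had no count of any of the 5. Within the 6 deeper WT libraries the sum was 13.8 ± 1.83 CPM. Stard5, which encodes a lipid-binding protein of the START family, had 9 counts in Fmr1-KO and 46 in WT, and no Fmr1-KO library lay above the WT median. Map3k15, a mitogen-activated kinase kinase kinase, had 8 counts in Fmr1-KO and 30 in WT, of which 13 fell in WT replicate 6. Both were below the filter and untested. Necab2, a neuronal calcium-binding protein, was tested and had a log2 fold change of -0.38 with an SE of 0.46. It averaged 5.85 CPM in Fmr1-KO, against 6.91 CPM in WT.

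CA3 markers were low. Bok (chromosome 1, 93685660 to 93695764, plus strand), which encodes a protein of the Bcl-2 family, was the highest of the 5 per kilobase and had 2.36, 12.4 and 23.9 CPM in Fmr1-KO and 8.30, 15.6 and 24.1 CPM in WT, as lowest, median and highest. The groups overlapped and the log2 fold change was -0.18 with an SE of 0.35. Cdh24, a type II cadherin, averaged 19.8 CPM in Fmr1-KO, against 23.0 CPM in WT, with a log2 fold change of -0.29 and an SE of 0.28. It had 4.80 and 12.04 CPM in WT replicates 3 and 6, and without them the value was -0.48 with an SE of 0.22 and an edgeR adjusted p of 0.654. Cpne4, a copine that binds membranes with calcium, had 11 counts in Fmr1-KO and 36 in WT, 20 of them in WT replicate 2. Coch, which encodes the secreted protein cochlin, had 12 counts in 3 Fmr1-KO libraries and 0 in WT, and Iyd, the iodotyrosine deiodinase, had 0 in Fmr1-KO and 3 in a single WT library. The 5 genes summed to 34.9 ± 10.99 CPM across Fmr1-KO libraries and 41.1 ± 11.02 CPM across WT libraries (SD, n = 8 each), with ranges that overlapped.

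Defining markers of dentate granule cells were low or near 0. Prox1 (chromosome 1, 190118035 to 190170714, minus strand), the homeobox factor that specifies granule cells, had 0, 5.98 and 11.5 CPM in Fmr1-KO and 0, 3.04 and 33.1 CPM in WT, as lowest, median and highest. The top value was that of WT replicate 6 and came from 11 counts, while Fmr1-KO replicate 6 and WT replicate 3 had none. The log2 fold change was -0.16 with an SE of 0.67, and 0.14 without WT replicates 3 and 6. Dsp (chromosome 13, 38151294 to 38198577, plus strand), which encodes desmoplakin, had 10 counts in Fmr1-KO and 6 in WT. Of the WT counts 5 fell in replicate 6, where they amounted to 15.04 CPM. C1ql2 (chromosome 1, 120340582 to 120343174, plus strand), a secreted C1q-like protein of mossy fibre synapses, had 12 counts in Fmr1-KO and 6 in WT. For scale, C1ql2 had 4.92, Dsp 4.37 and Amigo2 12.8 estimated counts for every 10000 of Wfs1, over all libraries and not divided by length.

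**Figure D4:**
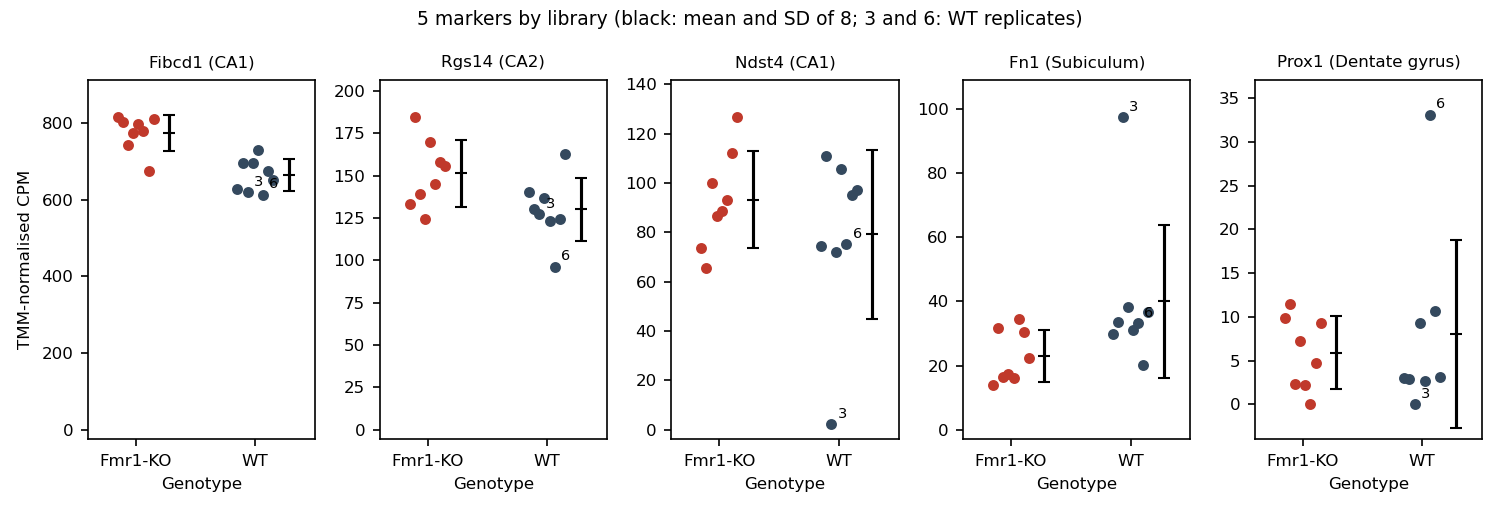
Level of Fibcd1, Rgs14, Ndst4, Fn1 and Prox1 in each library (vertical axes, normalised CPM, each with its own range), Fmr1-KO left of WT, with mean and SD of 8 in black and WT replicates 3 and 6 numbered. Fibcd1 has 7 Fmr1-KO libraries above every WT library; in Ndst4, Fn1 and Prox1 the WT spread rests on replicate 3 or 6.

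The dentate list as a whole was carried by C1ql3 and Lct. C1ql3 (chromosome 2, 13003457 to 13011806, minus strand), a C1q-like synaptic organiser, had 50.3, 81.3 and 97.8 CPM in Fmr1-KO and 45.4, 81.0 and 116 CPM in WT, as lowest, median and highest. Its log2 fold change was 0.00 with a 95% interval of -0.34 to 0.33. Lct (chromosome 1, 128284756 to 128328318, minus strand) encodes lactase, the brush border enzyme of the gut, and had 131, 144 and 219 CPM in Fmr1-KO and 117, 146 and 216 CPM in WT. Its log2 fold change was 0.03 with a 95% interval of -0.24 to 0.29, and was -0.04 without WT replicates 3 and 6. The 7 dentate genes other than C1ql3 and Lct summed to 20.7 ± 8.71 CPM in Fmr1-KO, against 35.1 ± 30.0 CPM in WT libraries (SD, n = 8 each), or 19.2 ± 6.35 CPM in the 6 deeper WT libraries. Pdzd2, a protein with several PDZ domains, averaged 6.59 CPM in Fmr1-KO, against 16.4 CPM in WT, with 66.0 CPM in WT replicate 3 and 30.1 in WT replicate 6. Its log2 fold change was -1.11 with an SE of 0.63 over all libraries and 0.18 without both. Stxbp6 (57 counts in Fmr1-KO and 73 in WT), which binds SNARE proteins, the cation channel gene Trpc6 (66 in Fmr1-KO and 63 in WT) and Tdo2 (13 in Fmr1-KO and 10 in WT), the tryptophan dioxygenase, were untested.

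Of the subiculum pair, Fn1 had counts in every library and Nts in 2 of 16. Fn1 (chromosome 1, 71585520 to 71653200, minus strand), which encodes the extracellular matrix protein fibronectin, had 14.1, 20.0 and 34.6 CPM in Fmr1-KO and 20.3, 33.3 and 97.3 CPM in WT, as lowest, median and highest. Of the Fmr1-KO libraries 7 lay below the WT median, and the ranges overlapped from 20.3 to 34.6 CPM. The means were 22.9 ± 8.14 CPM in Fmr1-KO, against 40.0 ± 23.8 CPM in WT libraries (SD, n = 8 each). The log2 fold change was -0.77 with an SE of 0.27 and an edgeR adjusted p of 0.572. WT replicate 3 supplied the highest value, and with replicates 3 and 6 left out WT averaged 31.6 ± 6.36 CPM (SD, n = 6), with a log2 fold change of -0.47, an SE of 0.21 and an edgeR adjusted p of 0.657. Over the alternatives the adjusted p ran from 0.287 to 0.975. Fn1 is also made by vessel cells, and the level of endothelial markers is given beside it. The endothelial genes Cldn5, Flt1 and Pecam1 (3 of 3 tested, all lower in Fmr1-KO, 0 called) summed to 37.5 to 94.3 CPM in Fmr1-KO and 52.7 to 228 CPM in WT, and the highest WT sum was again replicate 3. The 6 deeper WT libraries reached 80.2 CPM at most, and the log2 ratio of the mean sums was -0.26 without WT replicates 3 and 6, against -0.89 with them. Pecam1 was then no longer lower in Fmr1-KO, with a log2 fold change of 0.17. The part of these cells in the Fn1 difference was not tested. Nts (chromosome 10, 102481756 to 102490486, minus strand), the neuropeptide neurotensin, had 3 counts in 2 Fmr1-KO libraries and 0 in WT.

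Neocortical layer markers were present at low levels. Tle4 (chromosome 19, 14448150 to 14598051, minus strand), a Groucho-family corepressor of deep-layer neurons, had 16.4, 24.9 and 35.3 CPM in Fmr1-KO, against 22.4, 31.1 and 55.8 CPM in WT, as lowest, median and highest. The groups overlapped, with WT replicate 7 highest. Tle4 averaged 25.8 ± 7.06 CPM in Fmr1-KO, against 32.6 ± 10.6 CPM in WT libraries (SD, n = 8 each), and the log2 fold change was -0.32 with an SE of 0.21. Rorb, a nuclear receptor of layer 4 neurons, averaged 16.9 ± 7.05 CPM in Fmr1-KO, against 29.3 ± 38.3 CPM in WT. WT replicate 6 alone reached 123 CPM, from 41 counts. Its log2 fold change was -0.49 with an SE of 0.44 over all libraries and 0.24 with an SE of 0.27 without WT replicates 3 and 6. Ctgf, a matricellular protein gene of the deepest cortical layer, had 20 counts in Fmr1-KO and 44 in WT.

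More markers of neighbouring fields peaked in WT replicate 6 than in any other library. Of the 25 markers from outside CA1, 7 had their highest CPM of all 16 libraries there. WT replicate 3 held the highest CPM of 3, as did Fmr1-KO replicates 1 and 2 with 3 each, and 15 of the 25 had no count at all in WT replicate 3. The matching share over all genes was not computed, and a single count was worth 3.01 CPM in WT replicate 6, so these counts are a description only. Summed over the subfield lists, the log2 ratio of the Fmr1-KO mean over the WT mean was 0.01 for CA1, 0.12 for CA2, -0.24 for CA3, -0.06 for the dentate gyrus, -0.79 for the subiculum and -0.59 for neocortex. Without WT replicates 3 and 6 the same ratios were -0.04, 0.09, -0.36, 0.00, -0.45 and -0.14. These sums carry no test.

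Further genes of the same fields and of other cell types, listed beside the members, gave the same count of calls. Of 61 such genes 43 were tested, 10 with a positive and 33 with a negative log2 fold change, a median of -0.32 beside -0.01 over all genes, and none was called. With WT replicates 3 and 6 left out, 15 were positive and 28 negative, the median was -0.07 beside 0.00 over all genes, and again none was called. At an unadjusted p under 0.05 there were 7 with all libraries, or 16.3% of the 43, against 7.89% of all genes tested. All 7 were lower in Fmr1-KO, as were 4.28% of all genes, and their edgeR adjusted p ran from 0.568 to 0.628. Leaving out both WT libraries gave 4 (Fgf2, Cldn5, Pvrl3 and Mbp), or 9.30%, against 7.32% of all genes. Among the 7 with all libraries was Fgf2, a growth factor listed for CA2 (3.26 CPM in Fmr1-KO and 8.84 in WT). Another was the kainate receptor subunit gene Grik4, listed for CA3 (8.68 in Fmr1-KO and 29.2 in WT). The 7 also held the upper-layer cortical factor Cux2 (15.5 in Fmr1-KO and 28.4 in WT) and the astrocyte water channel Aqp4 (31.3 in Fmr1-KO and 49.4 in WT). The endothelial genes Cldn5 (6.67 in Fmr1-KO and 15.8 in WT) and Pecam1 (16.5 in Fmr1-KO and 46.3 in WT) were among the 7 as well. The log2 fold change of Grik4 was -0.10 without WT replicates 3 and 6, against -1.45 with all libraries, and that of Pecam1 was 0.17, against -1.21. Cux2 was at -0.42 without both libraries, against -0.81, and Aqp4 at -0.22, against -0.62, while Fgf2 (-1.31, against -1.41) and Cldn5 (-1.10, against -1.21) changed little.

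Cell types present in CA1 were also read, through markers that do not tell CA1 from neighbouring fields. The pyramidal neuron genes Slc17a7, Neurod6, Camk2a and Neurod2 summed to 6214 ± 375 CPM in Fmr1-KO, against 6075 ± 786 CPM in WT libraries (SD, n = 8 each). The highest WT sum was 7944 CPM in replicate 3, and the 6 deeper WT libraries had 5876 ± 168 CPM. The log2 ratio of these mean sums was 0.03, and 0.08 without WT replicates 3 and 6. The 6 interneuron genes summed to 266 ± 73.6 CPM in Fmr1-KO, against 288 ± 55.9 CPM in WT libraries (SD, n = 8 each). The 4 astrocyte genes summed to 332 to 419 CPM in Fmr1-KO and 283 to 1149 CPM in WT, the last in replicate 3. Their WT maximum was 486 CPM in the 6 deeper libraries. The 4 oligodendrocyte genes summed to 306 ± 67.5 CPM in Fmr1-KO, against 388 ± 116 CPM in WT libraries (SD, n = 8 each). For the 4 microglial genes the sums were 112 ± 33.2 CPM in Fmr1-KO, against 140 ± 52.85 CPM in WT. The log2 ratio of the mean sums was -0.34 for oligodendrocytes and -0.33 for microglia. Without WT replicates 3 and 6 the ratios were -0.33 and -0.11, and -0.08 for astrocytes, against -0.40 with all libraries. These sums carry no test. The choroid plexus, which lies beside the hippocampus, left almost no trace in its defining genes. Ttr, the transthyretin gene that dominates the RNA of that tissue, had 2 counts in 1 Fmr1-KO library and 0 in WT, Folr1 was at 0 in all 16 libraries, and Clic6 had 6 counts in Fmr1-KO and 0 in WT. The remaining gene of that list, Kl, which neurons also express, had 73.8 CPM in Fmr1-KO, against 66.7 CPM in WT.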

How the data were processed

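RNA of the CA1 subfield from 16 mice was sequenced, per the labels' protocols, with Illumina HiSeq. FastQC, cutadapt, kallisto and DESeq2 are named in the submitters' processing notes. The sources used here do not give their versions, the build or the index. The deposited tables hold, for 111706 transcripts, the estimated counts that kallisto's layout gives (reads divided between transcripts by a probabilistic model) and TPM values, which the authors' quantification scaled by effective length within each library. TPM ran low across WT replicates 3, 5 and 6, so levels between genes were compared as CPM divided by effective length.

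Estimated counts were summed by gene symbol and rounded to whole numbers. The genotypes were compared by edgeR 4.0.16 and its quasi-likelihood test in R 4.3.3 (TMM, filterByExpr with a minimum count of 10, no covariate), with Benjamini-Hochberg adjustment over all genes tested and a threshold of 0.05. Intervals of 95% are 1.96 SE to either side. Groups came from the labels, and replicate numbers only name libraries. Positions came from GENCODE M21 (GRCm38), joined by gene identifier for all 33 members. Alternatives used DESeq2 1.42.0, limma 3.58.1, other scalings, filters and pseudocounts, the animal's letter as a covariate, and libraries left out. Tables were made with pandas 2.3.3.

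The members and lists were chosen with earlier results of these data known. Values are given for the genes that the choice of markers names, the highest member of each subfield, those at an unadjusted p under 0.05, those with a library over 4 times its group median at a mean of at least 5 CPM, and Fmr1; other members are named with counts or fold changes, after their values were seen. Of the further genes at an unadjusted p under 0.05, 1 is not reported here.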

Additional observations from a re-analysis of the deposited data

Results flagged for a closer look

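In 51 groups of 8 libraries (a gene or a summed list in 1 genotype, at a mean of at least 5 CPM), 10 held a library set apart from the other 7 by more than Dixon's 95% criterion for the gap as a share of the group's range. The criterion is set for about 1 in 20 groups of independent, normally distributed values. Levels from low counts are not such values, and the summed lists share genes with the single markers. The 10 are therefore a description and cannot be weighed against that rate. WT replicate 3 accounted for 4. It was the lowest WT library for Ndst4, at 2.40 CPM, and the highest for Pdzd2, at 66.0 CPM, for Fn1, at 97.3 CPM, and for the summed subiculum markers, at 97.3 CPM, a sum that Fn1 alone made up. WT replicate 6 accounted for another 4, as the highest WT library for Map3k15 at 39.1 CPM, Prox1 at 33.1 CPM, Rorb at 123 CPM and the summed neocortical markers at 174.5 CPM. The groups of Map3k15 and Prox1 reached the minimum of 5 CPM only through that library, since the other 7 WT libraries averaged 0.843 and 4.51 CPM, so these are values and not a test. The remaining cases were Necab2 in Fmr1-KO replicate 2, at 14.9 CPM, where the other 7 Fmr1-KO libraries averaged 4.57 CPM and the same limit holds, and Tle4 in WT replicate 7, at 55.8 CPM. WT replicates 3 and 6 were also the libraries with the fewest counts, and the part of depth in these values was not tested.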

How the results depend on the processing

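No marker passed the threshold under any of 26 alternative settings, 16 of which left out a single library, and the smallest adjusted p of any marker was 0.0628 (Fibcd1, DESeq2). Of 494 recomputed log2 fold changes, with those on TPM taken relative to the median of all genes, 454 kept their sign and 40, in 8 markers, did not. Without that step TPM gave 17 positive and 2 negative markers at either pseudocount. The count of all genes called was 2, and was 8 with DESeq2, 5 with no filter, 7 with limma-voom, 0 with log2(TPM + 1) and 0 with log2(TPM + 0.1), which gave 902 and 736 genes at an unadjusted p under 0.05; it was 2 to 3 with a library left out. At an unadjusted p under 0.05, the unfiltered fit marked 8 of 33 markers (24.2%), against 13.5% of its 26471 genes.

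Without WT replicates 3 and 6 the log2 fold change became 0.00 for Mpped1, 0.14 for Prox1, 0.07 for C1ql3, -0.04 for Lct, 0.18 for Pdzd2 and 0.24 for Rorb. Library totals gave 0.04 for Mpped1, 0.00 for Dkk3 and 0.04 for C1ql3, and either other filter gave 0.01 for Mpped1 and for C1ql3. limma-voom gave 0.16 for C1ql3 and 0.10 for Rorb, and the letter covariate 0.01 for C1ql3. Relative to the median of all genes, which TPM shifted by 0.55 and 0.62, log2(TPM + 1) gave 0.11 for Mpped1, 0.03 for Dkk3 and 0.05 for C1ql3, and log2(TPM + 0.1) gave 0.04 for Mpped1 and 0.09 for Necab2. With a library left out, values ran from -0.03 to 0.02 for Mpped1, -0.37 to 0.30 for Prox1, -0.10 to 0.10 for C1ql3, -0.04 to 0.11 for Lct and -0.62 to 0.13 for Rorb. Apart from the shallow libraries left out, the cause was not tested.

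Summed TPM gave log2 ratios of 0.30 for CA1, 0.43 for CA2, 0.38 for the dentate gyrus and 0.07 for the subiculum. These TPM ratios were not taken relative to the median of all genes, which TPM shifted upward by 0.55 and 0.62 at the pseudocounts of 1 and 0.1. The mean of log2(CPM + 1) gave -0.31 for CA2. No paired analysis was possible because the labels give no replicate numbers shared between the genotypes. Depth limits the 14 untested markers, of which 8 had no count in more than 8 of the 16 libraries.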
